A study of Mus musculus with 32 samples.

Results

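The comparison described here is that of mouse tumor cells labelled shMogat1 with tumor cells labelled shCTRL, which make up 6 of the 32 libraries of a study of Mogat1 and immune evasion in breast cancer. All 6 libraries were chosen by their labels, 3 in each group. The cells carry the label MMTV-PyMT, a transgene in which a mammary promoter drives the polyoma middle T oncogene and mammary carcinomas arise, and were recovered from xenografts, that is, from cells grown as tumors in host animals. The first group received a hairpin RNA directed against Mogat1 (genotype label Mogat1 knockdown, replicates 1, 2 and 4), and the second a control hairpin (genotype label WT, replicates 1, 2 and 4). The labels give neither the age nor the strain of the hosts, nor the sequence of either hairpin, nor whether a knockdown line came from 1 clone or a pool of cells. Nor do they tie each replicate to an animal of its own, and the p-values below measure only the spread between these libraries, which may be technical. The study also holds tumor cells sampled over time at week 2, week 3 and week 4 (11 libraries) and CD8 T cells labelled with the same hairpins (6 libraries). CD8 T cells were sampled over the same weeks as well, and all of these are used below for levels only.

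Mogat1 encodes monoacylglycerol O-acyltransferase 1, an enzyme that joins a fatty acid to monoacylglycerol and so makes diacylglycerol, the precursor of stored triacylglycerol. A hairpin knockdown lowers a transcript by guiding the RNA interference machinery to it. Mammary carcinoma cells are epithelial cells, held together by E-cadherin, EpCAM, claudins and desmosomes and filled with keratin filaments. They can lose these genes and take up a mesenchymal programme of vimentin, fibronectin and matrix enzymes under transcription factors of the Zeb, Snail and Twist families, which bind E-box motifs in the promoters of epithelial genes.

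Values are given as TPM, a unit that divides reads by transcript length and by the sum over a library, so that levels can be compared between genes. A gene was tested where it reached 1 TPM in at least 3 of the 6 libraries, and was called where the adjusted p of the limma test was under 0.05. A log2 fold change is the mean log2(TPM + 1) of the shMogat1 libraries minus that of the shCTRL libraries, a scale that understates the change of genes with few TPM. Estimated depth was 35.4 to 49.5 megareads in libraries labelled shMogat1 and 43.1 to 52.6 in libraries labelled shCTRL. Between 12960 and 12999 genes reached 1 TPM in the shMogat1 libraries, against 12349 to 12376 in the shCTRL libraries, and the share of TPM from mitochondrially encoded genes was 5.07% to 5.41% in the shMogat1 libraries and 4.38% to 4.46% in the shCTRL libraries. Libraries of a group were very alike. Where a sentence gives only means, they are over 3 libraries in each group. The SD between libraries was taken for 148 genes named below with a mean of at least 5 TPM in a group. It had a median of 3.0% of the mean and reached 42.4% for Ccl8 in the shCTRL group. For genes with a mean of at least 5 TPM the median SD of log2(TPM + 1) was 0.0527 in the shMogat1 group and 0.0459 in the shCTRL group, against 0.286, 0.131 and 0.123 in the tumor cells of weeks 2, 3 and 4. The replicates still differed by more than counting noise, with a chi-square per degree of freedom of 2.40 to 3.02 for read numbers recovered from the TPM values, where independent reads alone would give 1.

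The targeted gene was measured first. Mogat1 (ENSMUSG00000012187.13, protein coding, GRCm38 chromosome 1, 78510991 to 78538173, plus strand) had 0.624, 0.146 and 0.531 TPM in libraries labelled shMogat1, against 0 TPM in each of the 3 libraries labelled shCTRL. With the transcript length of GENCODE release M21, these values correspond to 12, 2 and 10 reads in the shMogat1 libraries and to none in the shCTRL libraries, where 3 reads would have been 0.147 to 0.18 TPM. Replicates 1 and 4 of shMogat1 stood above what 3 reads would give in any shCTRL library, opposite to the direction the labels name, and replicate 2, with 2 reads, cannot be placed above the shCTRL libraries. The difference of means was 0.50 on the log2(TPM + 1) scale (SE 0.13, unadjusted p = 0.00667 by limma, since Mogat1 missed the filter), and the exact permutation test gave p = 0.1, two-sided, the smallest value 3 against 3 libraries can give. Both groups lay far below the tumor cells of the time course, where Mogat1 had 1.02 to 3.87 TPM in week 2 libraries, 4.46 to 9.38 in week 3 libraries and 35.8 to 39.6 in week 4 libraries, in a table that was scaled separately. The groups are therefore named by their labels throughout, and no direction below is a direction relative to a measured loss of Mogat1.

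Of the 12936 tested genes, 7052 were called (54.5%), of which 4479 were higher (34.6% of tested genes) and 2573 lower (19.9%) in libraries labelled shMogat1. The shares of 34.6% and 19.9% are the background for every count by list below that is taken over tested genes. The split depended on the scaling: 63.5% of calls were higher on TPM as deposited, 49.1% after rescaling by the median of ratios and 49.7% after quantile normalization, and the median log2 fold change of all tested genes was 0.075, 0.008 and -0.004 under the 3 scalings. Most calls were small, with 89.3% of them under 2-fold and a median size of 0.34 on the log2 scale. A change of at least 2-fold was called for 752 genes (5.81%): 553 genes were higher (4.27%) and 199 lower (1.54%). This split also moved with the scaling, to 500 higher and 230 lower after rescaling by the median of ratios. After quantile normalization it was 356 higher and 295 lower. Without shMogat1 replicate 1, 2 or 4 the number higher at least 2-fold was 342, 355 and 346, since a gene present only in the shMogat1 libraries then fails the 3-library filter. A total of 426 tested genes reached 1 TPM in the shMogat1 libraries alone, against 74 in the shCTRL libraries alone. Such genes had to differ to be tested, so lists in which they weigh are also counted, in the text or in the plot of calls by list, over the 11666 genes with at least 1 TPM in all 6 libraries, of which 33.4% were higher (2.35% at least 2-fold) and 21.0% lower (1.27% at least 2-fold).

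**Figure D1:**
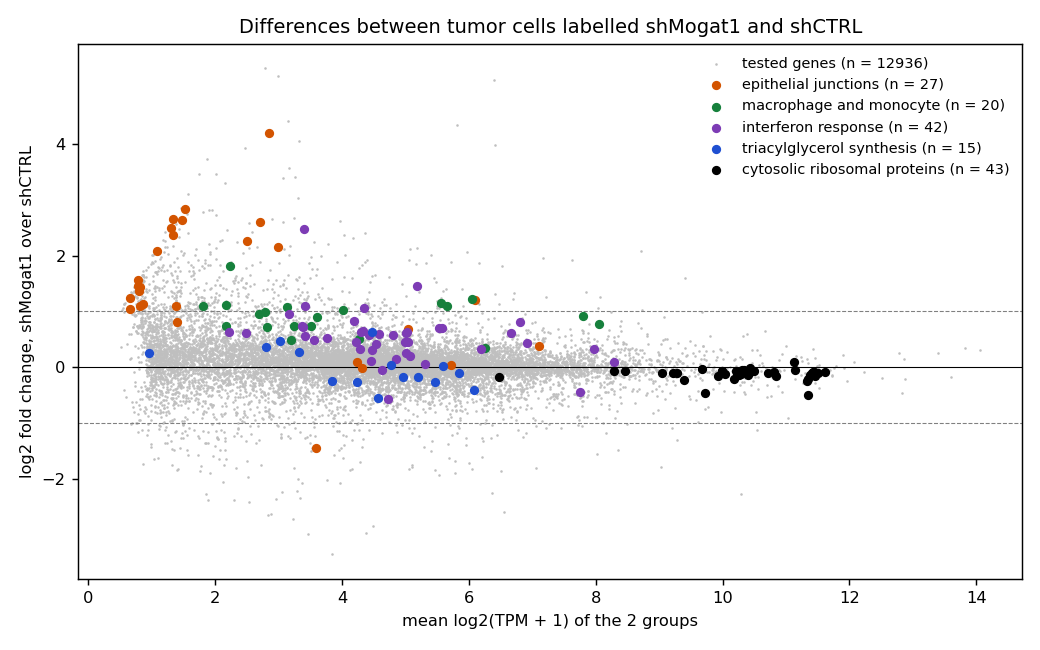
Log2 fold change of libraries labelled shMogat1 over shCTRL against the mean log2(TPM + 1) of the 2 groups, for 12936 tested genes; coloured points are members of 5 gene lists and dashed lines mark 2-fold changes. Epithelial junction and macrophage genes lie mostly above 0, with Cldn1 the junction gene below the lower dashed line, interferon genes lie mostly above 0, and triacylglycerol synthesis and ribosomal protein genes lie near 0.

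The most visible difference was in epithelial genes, which were close to absent in libraries labelled shCTRL and present at low to moderate levels in libraries labelled shMogat1. Epcam, an epithelial adhesion protein (GRCm38 chromosome 17, 87635979 to 87651129, plus strand), had 28.4, 29.6 and 30.8 TPM in the shMogat1 libraries, against 0.653, 0.56 and 0.864 TPM in the shCTRL libraries. The groups were far apart, and the log2 fold change was 4.18 (SE 0.09, adjusted p = 2.01e-08 by limma). Cdh1, which encodes E-cadherin, had 15.2, 15.2 and 14.5 TPM in the shMogat1 libraries and 2.00, 1.56 and 1.41 TPM in the shCTRL libraries (log2 fold change 2.59, SE 0.10, adjusted p = 3.06e-07 by limma). Among the tight junction claudins, Cldn3 had 6.16, 4.29 and 4.27 TPM against 0, 0.131 and 0 TPM, and Cldn4 had 5.36, 4.32 and 4.43 TPM against 0.149, 0.182 and 0 TPM. Cldn1 ran the other way, with 6.67, 5.97 and 6.23 TPM in the shMogat1 libraries and 17.7, 20.6 and 17.9 TPM in the shCTRL libraries (log2 fold change -1.43). In bulk RNA, fewer cells of a type and less RNA per cell cannot be told apart.

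Of the 34 genes of the epithelial junction list, 27 were tested, 23 were higher and 1, Cldn1, was lower, and 16 of the tested genes reached 1 TPM in the shMogat1 libraries alone. Over the 10 members with at least 1 TPM in all 6 libraries, 6 were higher and 1 lower, with a median log2 fold change of 0.53, against a median of 0.06 over all genes of that kind. Besides the adhesion genes, the list holds regulators of the epithelial state. Esrp1, a splicing factor of epithelial cells, had 5.25, 5.58 and 5.18 TPM in the shMogat1 libraries and 0.0339, 0 and 0 TPM in the shCTRL libraries. Grhl2, a transcription factor that maintains epithelial genes, had 2.04, 1.76 and 1.83 TPM against 0.0451, 0.0828 and 0.062 TPM. Dsp, the desmosomal protein desmoplakin, had 3.32, 3.12 and 3.64 TPM against 0.0137, 0.0168 and 0.0454 TPM. In each of these the groups did not overlap, as was the case for 62.3% of all tested genes (39.7% higher, 22.6% lower). Jup, encoding plakoglobin, was abundant in both groups at 102 TPM in the shMogat1 libraries and 44.0 TPM in the shCTRL libraries on average (log2 fold change 1.20), and Tjp1, encoding the scaffold ZO-1, at 155 and 119 TPM (log2 fold change 0.38).

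Since Zeb and Snail proteins bind the E-box CACCTG, the promoters of the junction genes are shown with that motif marked. A promoter was read as 250 bases before to 50 after the start of transcription in the RefSeq table of build GRCm38.p6, which held 20 of the 34 junction genes. The motif was searched as CACCTG on both strands (CAGGTG is its reverse complement). The first 4 sequences are those of the called members that were at least 2-fold higher in the shMogat1 libraries and hold the motif at least 2 times, and the last, without a match, is that of Cldn1, the only member at least 2-fold lower. All are written 5′ to 3′ on the strand of the gene, with the motif in capitals.
Epcam, chr17:87635729-87636028, plus strand: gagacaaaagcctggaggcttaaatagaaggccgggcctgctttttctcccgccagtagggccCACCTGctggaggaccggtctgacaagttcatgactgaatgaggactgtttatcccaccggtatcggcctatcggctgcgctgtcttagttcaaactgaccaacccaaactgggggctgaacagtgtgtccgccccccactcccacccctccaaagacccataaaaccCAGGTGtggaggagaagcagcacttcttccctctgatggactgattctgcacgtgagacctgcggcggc
Cldn4, chr5:134946885-134947184, minus strand: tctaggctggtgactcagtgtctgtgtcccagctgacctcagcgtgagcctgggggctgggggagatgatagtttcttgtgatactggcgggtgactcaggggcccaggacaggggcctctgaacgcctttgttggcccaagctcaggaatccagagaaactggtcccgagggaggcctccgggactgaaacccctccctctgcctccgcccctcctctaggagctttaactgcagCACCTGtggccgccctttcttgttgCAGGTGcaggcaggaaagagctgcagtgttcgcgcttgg
Rab25, chr3:88548230-88548529, minus strand: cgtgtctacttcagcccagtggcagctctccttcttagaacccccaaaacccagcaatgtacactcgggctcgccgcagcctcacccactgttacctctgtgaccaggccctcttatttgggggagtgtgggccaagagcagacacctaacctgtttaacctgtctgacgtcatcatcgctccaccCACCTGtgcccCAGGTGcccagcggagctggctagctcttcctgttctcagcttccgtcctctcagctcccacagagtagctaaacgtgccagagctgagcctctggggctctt
Spint2, chr7:29281928-29282227, minus strand: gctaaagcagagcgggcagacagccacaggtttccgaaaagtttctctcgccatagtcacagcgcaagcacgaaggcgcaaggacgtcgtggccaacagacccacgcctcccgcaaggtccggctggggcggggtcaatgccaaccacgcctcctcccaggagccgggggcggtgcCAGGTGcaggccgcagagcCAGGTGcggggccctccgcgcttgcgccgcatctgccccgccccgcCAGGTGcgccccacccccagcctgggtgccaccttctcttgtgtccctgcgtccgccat
Cldn1, chr16:26371790-26372089, minus strand: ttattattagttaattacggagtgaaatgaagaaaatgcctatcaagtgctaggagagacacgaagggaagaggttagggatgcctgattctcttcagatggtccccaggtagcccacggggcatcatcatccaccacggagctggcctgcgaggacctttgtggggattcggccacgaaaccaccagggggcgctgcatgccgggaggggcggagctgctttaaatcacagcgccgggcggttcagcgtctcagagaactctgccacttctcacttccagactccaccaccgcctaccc
Spint2, which encodes an inhibitor of epithelial serine proteases, averaged 15.9 TPM in the shMogat1 libraries and 2.83 TPM in the shCTRL libraries, and Rab25, a vesicle-traffic protein of epithelia, averaged 5.98 and 0.12 TPM. The motif stood in at least 1 listed promoter of 13 of the 20 junction genes (65.0%), against 22.6% of the 27025 genes with a promoter entry and 20.2% of the 9543 tested genes with one. The 20 include Ocln, Tjp3, Cldn6, Crb3 and Ovol2, which were not tested, and leave out Cdh1, which had no entry. The motif did not follow the direction of change throughout: Jup, Cgn, Grhl1 and Spint1 were also called at least 2-fold higher (log2 fold changes 1.20, 1.10, 1.10 and 1.46) and hold no match. A match is a stretch of letters and not a bound site.

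**Figure D2:**
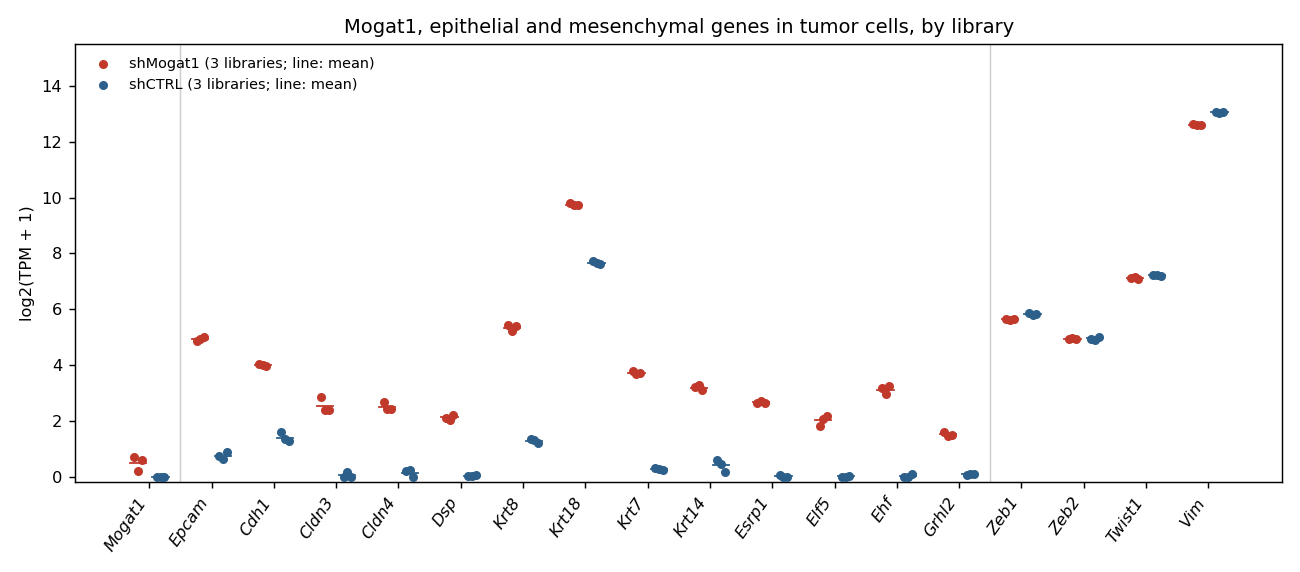
Levels of Mogat1 and 17 other genes as log2(TPM + 1) in each of the 3 libraries labelled shMogat1 (red, left of each pair) and shCTRL (blue, right), with a line at the mean. Epcam, Cdh1, keratin and other epithelial genes stand higher in every shMogat1 library than in any shCTRL library, where all but Krt18 are low, and Zeb1, Zeb2, Twist1 and Vim differ far less between the groups.

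Keratins of both mammary layers rose in the shMogat1 libraries. Krt8, a keratin of luminal cells, had 41.7, 36.4 and 40.8 TPM in the shMogat1 libraries against 1.57, 1.46 and 1.31 TPM in the shCTRL libraries, and Krt7, of simple epithelium, had 12.9, 11.8 and 12.1 TPM against 0.255, 0.208 and 0.187 TPM. Krt18, the partner of Krt8 in the filament, was expressed in both groups, with 886, 850.5 and 844 TPM against 212, 199 and 198 TPM (log2 fold change 2.08, SE 0.03, adjusted p = 1.01e-08 by limma). The pair was therefore uneven, with far more Krt18 than Krt8 in either group. The basal keratins followed: Krt14 averaged 8.18 TPM in the shMogat1 libraries and 0.341 TPM in the shCTRL libraries, Krt5 averaged 3.96 and 0.0226 TPM, and Krt17 averaged 6.63 and 0.132 TPM. Krt19, another luminal keratin, missed the filter, with 0.303, 0.567 and 1.34 TPM in the shMogat1 libraries and 0, 0.233 and 0 TPM in the shCTRL libraries. Krt16, a keratin of stressed epithelium, fell to 10.8, 6.84 and 8.37 TPM in the shMogat1 libraries, against 30.4, 33.8 and 33.4 TPM in the shCTRL libraries. Of the basal and myoepithelial list, 11 of 17 genes were tested, with 5 higher and 4 lower. Over the 6 with at least 1 TPM in all 6 libraries, which leave out Krt5, Krt14 and Krt17, 2 were higher and 3 lower, with a median log2 fold change of -0.30.

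Regulators of the luminal lineage did not all move together. Elf5, the transcription factor of alveolar luminal cells, had 2.53, 3.15 and 3.54 TPM in the shMogat1 libraries and 0, 0 and 0.0271 TPM in the shCTRL libraries, and Ehf, of the same family, averaged 7.74 and 0.0208 TPM. Kit, the stem cell factor receptor found on luminal progenitors, averaged 6.48 TPM against 0.0934 TPM. Prom1, a protein of membrane protrusions, had 2.51, 3.57 and 3.07 TPM in the shMogat1 libraries and 0 TPM in each shCTRL library. Gata3, the master regulator of luminal identity, was expressed in both groups at 72.7 and 48.9 TPM (log2 fold change 0.56). Foxa1, a partner of the estrogen receptor, averaged 2.25 and 1.75 TPM, a difference that did not pass (adjusted p = 0.145 by limma). Esr1, the estrogen receptor, fell to 6.52 TPM in the shMogat1 libraries against 9.96 TPM in the shCTRL libraries. Of 24 genes of the luminal list, 19 were tested, 12 were higher and 3 lower, with 6 of the 19 at 1 TPM in the shMogat1 libraries alone. Over the 12 with at least 1 TPM in all 6 libraries, 6 were higher and 3 lower, with a median log2 fold change of 0.29.

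The mesenchymal programme was high in both groups, and Vim, Fn1 and Mgp stood above every gene of the epithelial lists in each. Vim, encoding vimentin, had 6362, 6191 and 6174 TPM in the shMogat1 libraries and 8561, 8449 and 8521 TPM in the shCTRL libraries (log2 fold change -0.45, SE 0.02). Fn1, encoding fibronectin, averaged 7789 and 7042 TPM. Zeb1 fell slightly, to 49.2 TPM in the shMogat1 libraries against 55.8 TPM in the shCTRL libraries (log2 fold change -0.18), and Snai1 likewise, to 62.0 against 74.6 TPM (-0.26). Zeb2 averaged 29.7 and 30.1 TPM, and its log2 fold change was -0.02 with a 95% interval of -0.11 to 0.08. Twist1 averaged 139 and 147 TPM (-0.09), a call lost without shMogat1 replicate 1 or 4 or shCTRL replicate 1 or 2, and in another setting. Over the 28 genes of the mesenchymal transition list, 27 were tested, 11 were higher and 11 lower, with a median log2 fold change of -0.02.

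The secreted proteins that differed most belonged to milk and to the acute phase. Wfdc18, a small secreted inhibitor-like protein of the mammary gland, had the highest log2 fold change of the genes that met the naming rule, 5.34 (SE 0.12), with 40.8, 48.5 and 40.2 TPM in the shMogat1 libraries and 0, 0 and 0.273 TPM in the shCTRL libraries. Csn3, encoding kappa-casein, had 47.7, 47.1 and 46.1 TPM against 0.512, 0.358 and 0.0805 TPM. Trf, encoding the iron carrier transferrin, had 499, 496 and 495 TPM against 12.9, 13.2 and 13.5 TPM (log2 fold change 5.13, SE 0.03, adjusted p = 1.53e-11 by limma). The groups were separated for each, and Trf was also the most abundant of the 3. Lcn2, encoding the siderophore-binding lipocalin 2, had 267, 246 and 245 TPM in the shMogat1 libraries and 10.7, 14.7 and 9.82 TPM in the shCTRL libraries, and Hp, encoding haptoglobin, had 41.9, 37.4 and 39.9 TPM against 0.701, 0.981 and 1.10 TPM. The complement gene C3 averaged 75.0 and 16.3 TPM, Saa3 averaged 38.3 and 9.92 TPM, and Cp, encoding ceruloplasmin, averaged 450.0 and 252 TPM. Of the 16 acute phase and iron binding genes, 13 were tested, 11 were higher and 1 lower. Over the 9 of them with at least 1 TPM in all 6 libraries, 8 were higher, 7 of them at least 2-fold. The other 4 caseins of the list averaged under 0.2 TPM in both groups, and of the 19 genes of the milk list 8 were tested, with 6 higher. Over the 5 with at least 1 TPM in all 6 libraries, 3 were higher, with a median log2 fold change of 0.31.

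These levels were set beside the tumor cells of the time course, whose table was scaled separately, so only levels and no test are given. Over weeks 2, 3 and 4, Epcam averaged 305, 458 and 529 TPM, Krt8 averaged 366, 574 and 661 TPM, and Trf averaged 2856, 5613 and 7257 TPM. Over the 28 junction genes with at least 5 TPM at week 4, the median level was 6.75% of that of week 4 in the shMogat1 libraries and 0.548% in the shCTRL libraries. Single members ranged from 3.00% to 362% in the shMogat1 libraries, and Tjp1 was above its week 4 level in both groups, at 362% and 277%. The same medians were 14.2% and 2.60% for 18 luminal genes, 22.9% and 3.39% for 9 milk genes, and 16.4% and 2.93% for 11 acute phase genes. Luminal genes above their week 4 level included Gata3, at 160% in the shMogat1 libraries and 107% in the shCTRL libraries, Krt18, at 151% and 35.6%, and the ligand gene Areg, at 809 and 1052 TPM against 13.3 TPM at week 4. Mesenchymal genes went both ways. Vim averaged 4298, 2014 and 710 TPM and Fn1 951, 1570 and 738 TPM over weeks 2, 3 and 4, below both hairpin groups. S100a4, Pdgfra and Pdgfrb also averaged higher in both hairpin groups than in any week. Col1a1, Col1a2 and Lum averaged lower in both than in any week. Col1a1 had 99.2 and 72.9 TPM in shMogat1 and shCTRL libraries against 747 TPM at week 4. Col3a1 and Dcn were not on 1 side of all weeks in both groups. For comparison, 8 pan-leukocyte genes stood at a median of 64.8% and 32.2% of their week 4 level in the shMogat1 and shCTRL libraries, and 17 macrophage genes at 94.6% and 42.0%. Week 4 libraries varied widely here, with Ptprc at 3.13 to 19.2 TPM and C1qa at 23.2 to 206 TPM. The means of both hairpin groups lay inside these ranges. At weeks 2 and 3 Ptprc averaged 55.9 and 25.9 TPM and C1qa 274.5 and 167 TPM.

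**Figure D3:**
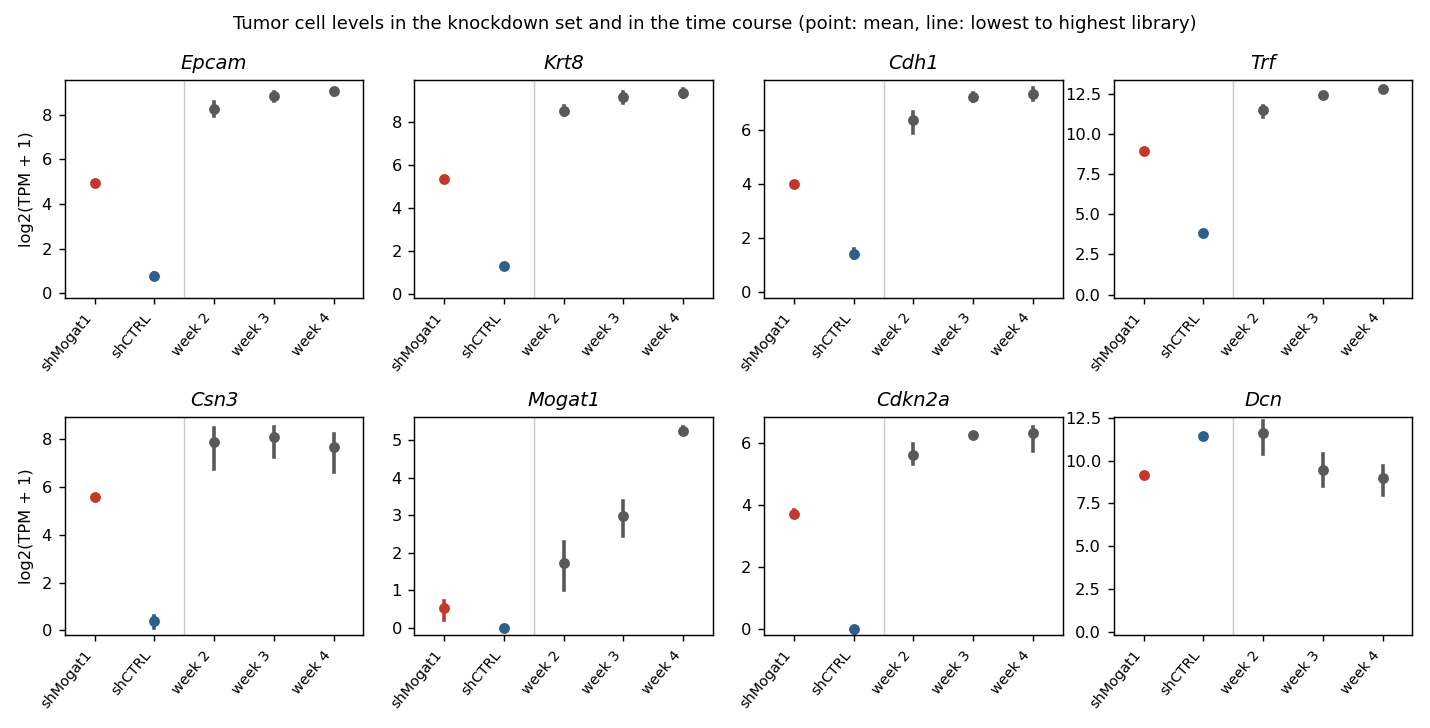
Levels of 8 genes as log2(TPM + 1) in tumor cells labelled shMogat1 (red) and shCTRL (blue) and, to the right of the grey line, in tumor cells of weeks 2, 3 and 4 (dark grey), with points for the mean and lines from the lowest to the highest library. Epithelial genes, Trf, Csn3, Mogat1 and Cdkn2a are lower in both hairpin groups than at week 4, with shCTRL lowest, and Dcn is higher in the shCTRL libraries than in the shMogat1 libraries.

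Cdkn2a separated the groups completely. The gene encodes the cell cycle inhibitors p16 and p19ARF and lies on GRCm38 chromosome 4 (89274471 to 89294653, minus strand, ENSMUSG00000044303.6). It had 13.3, 11.3 and 12.3 TPM in libraries labelled shMogat1, from 212, 128 and 191 reads, and 0 TPM from 0 reads in each library labelled shCTRL. Taking the 3 reads that a count of 0 allows in each shCTRL library, the level was at least 62.3-fold higher in the shMogat1 libraries. Its neighbour Cdkn2b (89306299 to 89311039, minus strand), which encodes p15, had 1.02, 1.44 and 1.88 TPM against 0 TPM in each shCTRL library, at least 2.25-fold higher. These values correspond to at least 5, 5 and 9 reads, the smallest whole numbers that match them. On the other side of Cdkn2a, Mtap (89137122 to 89181081, plus strand), an enzyme of methionine salvage that was looked up after the values of Cdkn2a were seen, had 869, 879 and 867 TPM in the shMogat1 libraries and 659, 657 and 653 TPM in the shCTRL libraries. The absence of reads thus held for Cdkn2a and Cdkn2b but not for Mtap in the shCTRL libraries. Tumor cells of the time course had 39.0 to 91.2 TPM of Cdkn2a and 4.39 to 16.4 TPM of Cdkn2b.

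Of 40 genes of the cell cycle list, Cdkn2a and Cdkn2b included, all were tested, 15 were higher and 7 lower on TPM as deposited, and 9 were higher and 15 lower after rescaling by the median of ratios, so no direction is given for the list. E2f2, a transcription factor of the G1 to S transition, rose to 7.02 TPM in the shMogat1 libraries against 3.16 TPM in the shCTRL libraries, and Ccnd2, encoding cyclin D2, fell to 22.2 against 35.8 TPM. Mki67, a proliferation marker, averaged 106 and 95.9 TPM and Top2a averaged 258 and 229.8 TPM. Of 19 tested targets of p53, the transcription factor of the DNA damage response, 10 were lower and 4 higher. Over all tested genes 19.9% were lower and 34.6% higher. Cdkn1a, encoding p21, fell to 167, 175 and 174 TPM in the shMogat1 libraries, against 273, 281 and 277 TPM in the shCTRL libraries (log2 fold change -0.68), and Mdm2 fell to 60.5 against 84.1 TPM. Pmaip1 and Fas, which promote cell death, rose to 15.4 and 18.7 TPM in the shMogat1 libraries, against 6.67 and 9.69 TPM in the shCTRL libraries. Trp53 itself averaged 141 and 136 TPM and was not called (adjusted p = 0.183 by limma).

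The genes that fell by the naming rule included matrix proteins and growth factors. Dcn, encoding the small proteoglycan decorin (GRCm38 chromosome 10, 97479609 to 97518143, plus strand), had 570.0, 571 and 577 TPM in the shMogat1 libraries and 2735, 2748 and 2764 TPM in the shCTRL libraries (log2 fold change -2.26, SE 0.01, adjusted p = 5.02e-11 by limma). The 3 libraries of each group lay within a narrow band, far from those of the other. Acan, encoding the cartilage proteoglycan aggrecan, had 7.06, 5.71 and 6.65 TPM against 55.6, 56.5 and 58.4 TPM, and Tnfaip6, a hyaluronan-binding protein of inflamed matrix, averaged 37.6 and 230.5 TPM. Angptl7, a secreted angiopoietin-like protein, had the lowest log2 fold change of the genes that met the naming rule, -3.34 (SE 0.07), with 3.84, 3.69 and 3.08 TPM against 43.4, 45.8 and 45.2 TPM. Fgf7 and Fgf10, ligands that mesenchymal cells send to epithelial FGF receptors, averaged 2.72 and 1.16 TPM in the shMogat1 libraries, against 22.9 and 10.1 TPM in the shCTRL libraries. Hgf, the ligand of the receptor Met, averaged 1.88 TPM against 16.7 TPM, and Met averaged 66.4 and 84.3 TPM. Fgfr1, a receptor of the family, averaged 419.6 TPM in the shMogat1 libraries and 595 TPM in the shCTRL libraries.

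**Figure D4:**
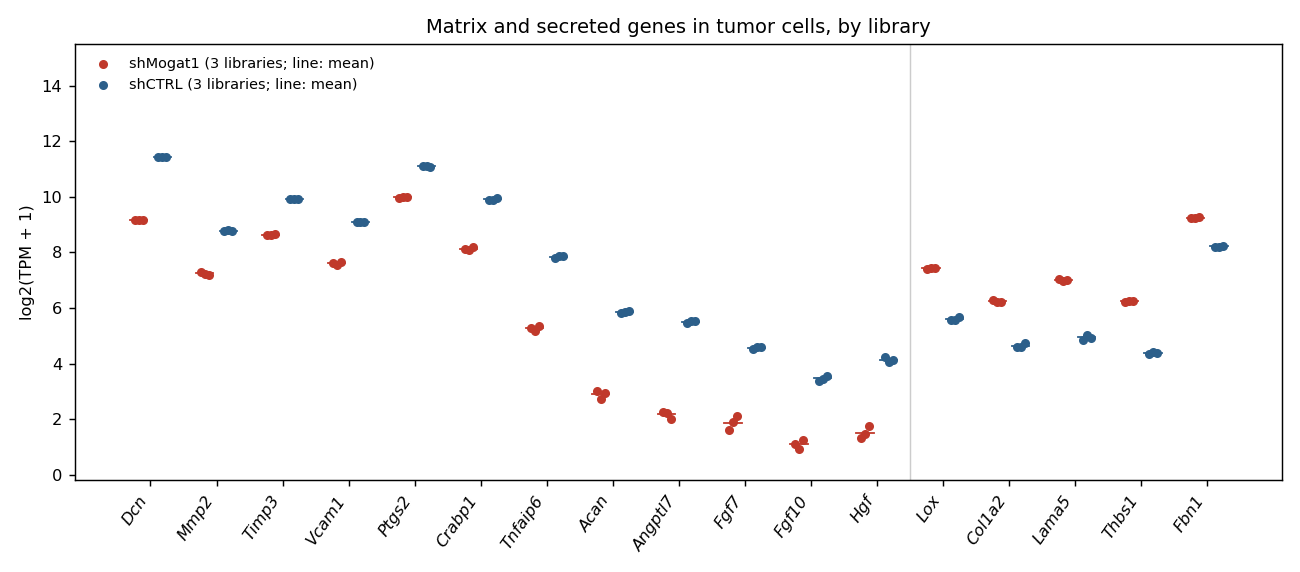
Level of 17 matrix and secreted genes as log2(TPM + 1) in each of the 3 libraries labelled shMogat1 (red, left of each pair) and shCTRL (blue, right), with a line at the mean. Left of the grey line are genes lower in the shMogat1 libraries, from Dcn to Hgf, and right of it genes that were higher, Lox, Col1a2, Lama5, Thbs1 and Fbn1.

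Matrix genes as a class went in both directions. Of 26 matrix remodelling enzymes and inhibitors, 24 were tested, 8 were higher and 12 lower, against 34.6% higher and 19.9% lower over all tested genes. Mmp2, a gelatinase, fell to 158, 150 and 145 TPM in the shMogat1 libraries, against 441, 443 and 438 TPM in the shCTRL libraries, and Timp3, an inhibitor of metalloproteinases, averaged 397 and 973 TPM. Mmp13, a collagenase, rose to 76.6 TPM against 29.2 TPM. Mmp14, which activates Mmp2 at the cell surface, averaged 948 and 724 TPM. Of 29 collagen genes, 26 were tested, 17 were higher and 6 lower, against the same shares of 34.6% and 19.9%. Col1a2 rose to 76.9, 74.1 and 73.2 TPM in the shMogat1 libraries, against 23.5, 23.5 and 25.5 TPM in the shCTRL libraries, and Col9a1, a cartilage collagen, had 10.7, 9.22 and 10.2 TPM against 0.0317, 0 and 0 TPM. Col3a1, the most abundant collagen in both groups, averaged 1648 and 1793 TPM. Lox, which cross-links collagen, averaged 171 TPM in the shMogat1 libraries and 47.8 TPM in the shCTRL libraries, and the fibrillin gene Fbn1 averaged 604 and 297 TPM. Laminin chains of the basement membrane went opposite ways, with Lama5 at 128 and 29.8 TPM and Lama4 at 46.0 and 116 TPM in libraries labelled shMogat1 and shCTRL.

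The summed level of the fibroblast marker list was 4319 to 4409 TPM in the shMogat1 libraries and 7205 to 7243 TPM in the shCTRL libraries, and most of that gap is Dcn, itself a member. Of its 16 genes 14 were tested, 7 were higher and 4 lower, with a median log2 fold change of 0.25. The part of fibroblasts in the values above was not tested.

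The other genes that met the naming rule were of mixed kinds. Higher in the shMogat1 libraries were Ly6d, a surface protein of the Ly6 family, at 20.7 against 0.424 TPM, Cd24a, a surface marker of mammary epithelium, at 30.3 against 2.00 TPM, and Mgst1, a microsomal glutathione transferase, at 29.7 against 1.60 TPM. The abundant genes that rose were Gsto1, a glutathione transferase, at 378 against 182 TPM, Lyz2, the lysozyme of macrophages, at 305 against 161 TPM, and Ctla2a, whose reads may be shared with its near copy Ctla2b, at 734 against 394 TPM. Among genes lower in the shMogat1 libraries, Ldhb, a lactate dehydrogenase subunit, had 3.23, 3.15 and 2.46 TPM against 28.3, 29.0 and 32.1 TPM in the shCTRL libraries. Crabp1, which binds retinoic acid, had 278, 270.1 and 291 TPM in the shMogat1 libraries and 943, 957 and 999.8 TPM in the shCTRL libraries. Nr4a3, an immediate early nuclear receptor, averaged 36.9 TPM in the shMogat1 libraries and 179 TPM in the shCTRL libraries, and Agt, encoding angiotensinogen, averaged 0.653 and 6.96 TPM. Tmprss11b, a membrane serine protease, averaged 7.45 and 58.8 TPM. Fbln7, Slurp1, Gpha2 and Nrn1 fell by 2.62, 2.40, 2.35 and 2.33 on the log2 scale. The abundant genes Gprc5a, Acpp and Sod3, the last an extracellular superoxide dismutase, averaged 189.5, 152 and 147 TPM in the shMogat1 libraries, against 427, 316.5 and 299 TPM in the shCTRL libraries.

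Secreted regulators of Wnt and insulin-like growth factor signalling went in both directions. Of 38 Wnt pathway genes, 28 were tested, 14 were higher and 9 lower, against 34.6% higher and 19.9% lower over all tested genes. The Wnt inhibitors Wif1 and Sfrp1 averaged 5.07 and 12.8 TPM in the shMogat1 libraries, against 0.0882 and 1.58 TPM in the shCTRL libraries, whereas the inhibitors Dkk2 and Notum averaged 28.4 and 23.0 TPM against 88.5 and 63.6 TPM. The ligand Wnt10a averaged 58.5 and 22.3 TPM and the target Axin2 averaged 19.7 and 9.72 TPM. Igfbp5 and Igfbp2, which bind insulin-like growth factors outside the cell, stood among the genes with the largest increases. Igfbp5 had 338, 327 and 347 TPM in the shMogat1 libraries against 19.8, 20.1 and 21.6 TPM in the shCTRL libraries, and Igfbp2 averaged 26.2 and 1.64 TPM. Igfbp6 fell to 39.1 against 95.1 TPM. Pdgfa, a ligand of the platelet-derived growth factor receptors, rose to 165 against 65.3 TPM. Hhip, which sequesters Hedgehog ligands, rose to 39.6 against 9.79 TPM, and Pgf, placental growth factor, to 8.89 against 0.418 TPM.

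Markers of leukocytes were higher in the shMogat1 libraries. Ptprc, encoding the pan-leukocyte protein CD45, had 12.0, 11.3 and 11.2 TPM in the shMogat1 libraries and 4.02, 4.28 and 3.86 TPM in the shCTRL libraries (log2 fold change 1.30, SE 0.07, adjusted p = 1.89e-06 by limma). All 8 pan-leukocyte genes were tested and higher, 6 of them at least 2-fold, and all 20 macrophage and monocyte genes were tested and higher, 8 of them at least 2-fold. C1qa, a complement gene of macrophages, had 109, 92.9 and 100.5 TPM against 41.8, 41.8 and 43.7 TPM, and the summed level of the macrophage list was 1119 to 1161 TPM in the shMogat1 libraries and 606 to 630 TPM in the shCTRL libraries. T cell genes were near the limit of detection: Cd3e had 1.51, 2.31 and 1.59 TPM against 0.843, 0.706 and 0.147 TPM, and Cd8b1 averaged 1.83 and 0.153 TPM. The summed T cell list came to 31.4 to 33.5 TPM in the shMogat1 libraries and 8.81 to 10.4 TPM in the shCTRL libraries. Of 10 tested T cell genes 9 were higher, but 6 of the 10 reached 1 TPM in the shMogat1 libraries alone, and 1 of the 2 with at least 1 TPM in all 6 libraries was higher. Jchain, a gene of plasma cells, had 44.9, 48.5 and 45.0 TPM against 7.72, 8.40 and 7.69 TPM. Of the endothelial markers, 2 of 8 tested genes were higher and 1 lower, the same counts as over the 6 with at least 1 TPM in all 6 libraries, with sums of 82.6 to 86.3 TPM in the shMogat1 libraries and 76.0 to 82.8 TPM in the shCTRL libraries. Xist, transcribed from the inactive X of female cells, averaged 5.76 TPM in the shMogat1 libraries and 1.98 TPM in the shCTRL libraries. Ddx3y, a Y-linked gene, averaged 100.2 and 127 TPM, but the Y-linked genes Eif2s3y, Kdm5d and Uty were not lower on average. They had 50.04, 13.31 and 12.63 TPM in the shMogat1 libraries and 49.51, 12.4 and 11.6 TPM in the shCTRL libraries. Cd8a averaged 1.76 TPM in the shMogat1 libraries and 0.404 TPM in the shCTRL libraries, while CD8 T cell libraries labelled with the same hairpins, in their own table, held 685 and 698 TPM.

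Genes of antigen presentation and of the interferon response were higher together with these leukocyte markers, and the part of the leukocytes in them was not tested. Cd74, the chaperone of MHC class II, had 381, 386 and 377 TPM in the shMogat1 libraries and 102, 102 and 96.4 TPM in the shCTRL libraries, and Ciita, the activator of class II genes, averaged 2.76 and 0.378 TPM. Of 43 interferon response genes, 42 were tested, 37 were higher and 2 lower, with a median log2 fold change of 0.57 over all tested members, 4 of them at least 2-fold higher. Zbp1, a sensor of nucleic acids, had 58.4, 59.2 and 59.5 TPM against 21.2, 21.3 and 20.2 TPM. Irf7, a transcription factor of the response, averaged 60.1 and 36.4 TPM, and Tgtp1, a GTPase whose reads may be shared with its near copy Tgtp2, averaged 23.9 and 3.46 TPM. The 2 that fell were Gbp2, at 184 TPM in the shMogat1 libraries and 249.6 TPM in the shCTRL libraries, and Socs1, a feedback inhibitor, at 20.8 and 31.0 TPM. Of the 15 MHC class I presentation genes, 11 were higher and 2 lower, all by less than 2-fold. B2m, the light chain of class I, averaged 4693 and 4939 TPM with overlapping groups (adjusted p = 0.0429 by limma, a call lost in 9 of 15 other settings), and the immunoproteasome subunits Psmb8 and Psmb9 averaged 342 and 123 TPM in the shMogat1 libraries, against 276 and 94.8 TPM in the shCTRL libraries. Rows for class I and class II heavy chains are not reported here.

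Genes of the checkpoint ligand list were mostly higher. The list also holds enzymes and the costimulatory ligands Cd80 and Cd86, so its counts are not counts of ligands that restrain T cells. Cd274, encoding the checkpoint ligand PD-L1, had 15.9, 15.3 and 13.3 TPM in the shMogat1 libraries and 9.55, 9.27 and 8.91 TPM in the shCTRL libraries (log2 fold change 0.63, SE 0.07, adjusted p = 0.000175 by limma). Nt5e, encoding the adenosine-producing enzyme CD73, had 525, 529 and 537 TPM against 307, 314 and 300.4 TPM, and was thus far more abundant than Cd274 in both groups. Entpd1, encoding CD39, which supplies the substrate of CD73, fell to 35.8 against 48.2 TPM. The ligand genes Pvr and Nectin2 also fell, with log2 fold changes of -0.189 and -0.393. Of 24 checkpoint ligand genes, 19 were tested, 13 were higher and 3 lower. Of 14 T cell attracting chemokines, 11 were tested, 8 were higher and none lower on TPM as deposited, and 7 were higher and 2 lower after quantile normalization. Over the 9 of them with at least 1 TPM in all 6 libraries, 6 were higher. Cxcl9, a ligand of CXCR3, had 26.0, 26.3 and 30.6 TPM in the shMogat1 libraries and 8.30, 8.49 and 8.02 TPM in the shCTRL libraries, and Ccl5 averaged 36.6 and 23.0 TPM.

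Chemokines and cytokines of myeloid inflammation moved both ways. The neutrophil attractants Cxcl1 and Cxcl5 fell, to 1541 and 19.2 TPM in the shMogat1 libraries against 2866 and 40.1 TPM in the shCTRL libraries, and Cxcl14 fell to 27.6 against 105 TPM. The monocyte attractants Ccl2 and Ccl8 rose, to 404 and 28.5 TPM against 298 and 5.66 TPM. Il6 and Tnf rose to 32.4 and 13.1 TPM in the shMogat1 libraries against 14.3 and 5.89 TPM in the shCTRL libraries, whereas the epithelial alarm cytokine gene Tslp fell to 13.7 against 30.7 TPM, and Il11 to 93.3 against 175 TPM. Of 26 genes of this list, 24 were tested, 13 were higher and 8 lower, against 34.6% higher and 19.9% lower over all tested genes. Of 15 targets of NF-kB, the transcription factor of inflammatory signalling, 10 were lower and 3 higher. Ptgs2, the inducible cyclooxygenase of prostaglandin synthesis, had 988, 1019 and 1025 TPM in the shMogat1 libraries and 2223, 2213 and 2177 TPM in the shCTRL libraries (log2 fold change -1.12, SE 0.02). Vcam1, an adhesion molecule for leukocytes, averaged 194 and 544 TPM, and Nfkb1 averaged 93.9 and 181 TPM. Il1rl1, the receptor of interleukin 33, fell to 405 against 858 TPM.

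Most lipid genes, the pathway of the targeted enzyme, differed by less than 2-fold. The same held for tested genes at large, of which 5.81% were called with a change of at least 2-fold. Of 20 triacylglycerol synthesis genes, 15 were tested, 3 were higher and 8 lower, none by 2-fold. Dgat1, which makes triacylglycerol from diacylglycerol, had 28.1, 27.3 and 30.1 TPM in the shMogat1 libraries and 30.6, 33.8 and 31.9 TPM in the shCTRL libraries (log2 fold change -0.17, SE 0.05), a call lost without shMogat1 replicate 1 or 2 or shCTRL replicate 2 or 4. Mogat2 and Dgat2 stayed under 1 TPM in every library. Agpat2, an enzyme of phosphatidic acid synthesis, averaged 26.5 and 16.8 TPM, and Gpat4, which starts glycerolipid synthesis, averaged 57.8 and 76.5 TPM. Mgll, the lipase that breaks down monoacylglycerol, the substrate of Mogat1, stood out with 37.5, 39.5 and 39.8 TPM in the shMogat1 libraries against 7.16, 7.10 and 6.99 TPM in the shCTRL libraries (log2 fold change 2.30, SE 0.05, adjusted p = 1.77e-08 by limma). The droplet coat gene Plin2 averaged 110.3 and 91.1 TPM.

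Several fatty acid desaturases rose, and the core synthase was not called. Fads1, Fads2 and Fads3 averaged 102, 79.7 and 33.4 TPM in the shMogat1 libraries, against 51.5, 41.9 and 16.7 TPM in the shCTRL libraries, and Scd2 averaged 373 and 234 TPM. Scd1, the related desaturase, averaged 125.5 and 119 TPM, with a log2 fold change of 0.07 (adjusted p = 0.0173 by limma). That call was lost in 3 of 15 other settings, among them the fit without shCTRL replicate 1. Fasn averaged 68.3 and 69.5 TPM, with a 95% interval of the log2 fold change of -0.10 to 0.05. Thrsp, a lipogenic factor of mammary epithelium, had 4.79, 2.55 and 4.37 TPM against 0.122, 0.15 and 0.269 TPM. Of 24 fatty acid synthesis genes, 22 were tested, and 12 were higher and 5 lower on TPM as deposited. After rescaling by the median of ratios 10 were higher and 8 lower, and after quantile normalization 12 were higher and 7 lower. Of 24 cholesterol synthesis genes, 23 were tested, 15 were higher and 3 lower. Hmgcs1, an early enzyme of the pathway, fell to 87.7 TPM in the shMogat1 libraries against 122 TPM in the shCTRL libraries, while Sc5d, a late enzyme, had a log2 fold change of 0.47.

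Among other broad programmes, chaperone genes were mostly higher. Of 16 heat shock chaperones, 13 were higher and 1, Hspb8, was lower. Hspa1a and Hspa1b, near-identical copies whose reads cannot be assigned with certainty, averaged 427 and 1146 TPM in the shMogat1 libraries and 214 and 579 TPM in the shCTRL libraries. Of 43 cytosolic ribosomal protein genes, 32 were lower and 1 higher on TPM as deposited, 40 were lower and none higher after rescaling by the median of ratios, and 10 were lower and 4 higher after quantile normalization. Their median log2 fold change was -0.09. Oxidative phosphorylation subunits gave 5 higher and 11 lower of 37 as deposited and 2 higher and 19 lower after rescaling, with a median of -0.02. Of glycolysis genes, 11 of 21 tested were higher and 4 lower as deposited. After rescaling by the median of ratios 9 were higher and 6 lower, and after quantile normalization 12 were higher and 4 lower. Aldoc, an aldolase isoform, rose to 12.8, 12.9 and 13.7 TPM in the shMogat1 libraries, against 1.83, 0.976 and 1.39 TPM in the shCTRL libraries, and Hk2, the first enzyme of glycolysis in many tumors, fell to 74.3 against 102 TPM. Ldha averaged 940 and 931 TPM and was not called (adjusted p = 0.579 by limma). P4ha2, a hypoxia-responsive collagen hydroxylase, averaged 36.0 and 11.9 TPM.

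**Figure D5:**
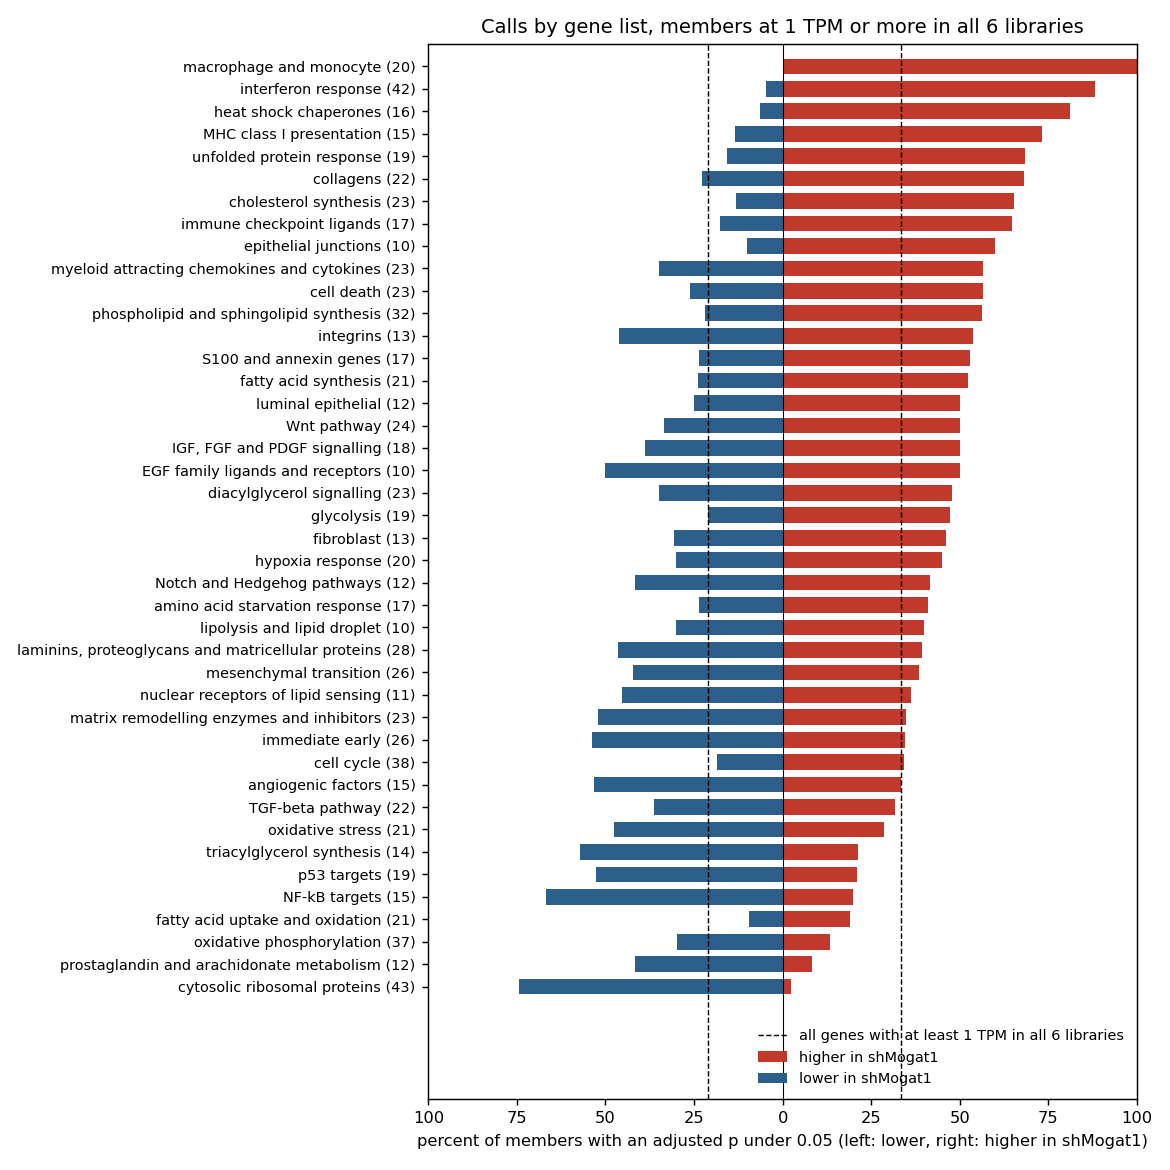
Percent of the members of 42 gene lists that were called higher (red, right) or lower (blue, left) in libraries labelled shMogat1, over members with at least 1 TPM in all 6 libraries (their number in brackets); dashed lines give the same shares over all 11666 such genes, 33.4% higher and 21.0% lower. Macrophage, interferon and chaperone genes lie furthest to the right, and ribosomal protein and NF-kB target genes furthest to the left.

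Some of the differences that were largest in tumor cells were also seen as levels in the CD8 T cell libraries labelled with the same hairpins, which were scaled in a separate table. Wfdc18 had 28.0 to 30.9 TPM in CD8 T cell libraries labelled shMogat1 and 0 to 0.789 TPM in those labelled shCTRL, and Csn3 had 28.1 to 30.9 against 0.311 to 0.374 TPM. Epcam had 28.3 to 30.4 TPM against 2.82 to 4.57 TPM, near the level of the tumor cell libraries labelled shMogat1. Mesenchymal genes were present there too, with Vim at 1263 to 1302 TPM in the shMogat1 libraries and 2308 to 2489 TPM in the shCTRL libraries, and Mgp at 538 to 576 against 2084 to 2254 TPM. Cdkn2a was not at 0 there, with 8.12 to 9.42 TPM in the shMogat1 libraries and 2.23 to 3.65 TPM in the shCTRL libraries. CD8 T cell libraries of the time course, scaled in another table, also held the epithelial and milk genes. Over weeks 2, 3 and 4 Epcam averaged 19.56, 37.65 and 35.28 TPM in them. Wfdc18 averaged 9.215, 21.11 and 38.09 TPM, and Csn3 averaged 7.471, 24.59 and 23.45 TPM. No test was made across the tables.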

How the data were processed

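RNA from tumor cells was extracted with TRIZOL and made into libraries with a stranded mRNA kit, per the labels' protocols. Reads were handled with FastQC, Trim Galore and HISAT2 on mouse build mm10, per the submitters' processing notes; the read counter, its annotation and its use of strand are not given in the sources used here. The authors deposited 1 table of TPM values for the 6 libraries, with 33681 rows, of which 27 had gene names turned into dates (at most 0.184% of TPM) and were left out. Separately scaled TPM tables of the time course and of CD8 T cells were used for levels only. Values were tested as log2(TPM + 1) with limma 3.58.1 (trend, Benjamini-Hochberg adjustment over all 12936 tested genes) in R 4.3.3, after a filter of 1 TPM in at least 3 libraries. Tables were handled with Python 3.11.15, pandas 2.3.3, numpy 2.4.6, scipy 1.17.1 and matplotlib 3.10.9. Whole reads were recovered from steps in the TPM values for 91.3% of 16059 genes (within 0.01 of a whole number); depth estimates rest on GENCODE M21 lengths. A floor of 3 reads covers counting error only, and the interval level is 95%. On simulated data with 200 changed genes among 12936, 98% of 2-fold and 100% of 4-fold changes were recovered, and 2.94% of calls were false. The changed genes were drawn only from the better expressed genes, with normal noise, and were far fewer than the genes called in the data. These rates therefore do not cover genes with few TPM. Genes were named as members of 59 lists (1194 genes), as the 15 in each direction with the largest called change, no overlap and at least 5 TPM in the higher group, or as the 10 in each direction with a mean of at least 200 TPM. The members and lists were chosen with earlier results of these data known. Alternatives were other pseudocounts, filters, scalings, weights, a replicate block and leaving out each library.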

Additional observations from a re-analysis of the deposited data

How the results depend on the processing

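The number of genes called, 7052, lay between 5842 and 6369 when 1 library was left out, with 3508 to 4108 higher and 2221 to 2413 lower, and 406 to 482 list genes higher and 244 to 267 lower. The 2-fold counts, a rule chosen after the data were seen, moved more. Genes at least 2-fold higher, 553, became 851 with a pseudocount of 0.1, 139 with a pseudocount of 5, 224 with a mean of at least 5 TPM, 356 after quantile normalization and 342 to 574 when 1 library was left out. Genes at least 2-fold lower, 199, became 283 with a pseudocount of 0.1, 84 with a pseudocount of 5 and 127 with a mean of at least 5 TPM. Their number was 230 after median-of-ratios rescaling, 295 after quantile normalization and 171 to 205 when 1 library was left out. The difference in Mogat1 was 0.405 to 0.657 when 1 library was left out. The replicate numbers did not pair the libraries, with correlations of deviations of -0.036, 0.023 and -0.027 for replicates 1, 2 and 4, and a fit with the replicate block called 6709 genes (Mogat1 unadjusted p = 0.00901 by limma). Of 2352 values for 165 named genes in 15 settings, 2320 kept direction and side of the threshold, 23 lost the call (B2m in 9 settings, Twist1 in 5, Dgat1 in 4, Scd1 in 3, Cd3e and Mki67 in 1 each), 2 gained it and 7 changed sign. The sign changes were small: Col3a1 at 0.004 and Foxa1 at -0.053 after quantile normalization, Ldha at -0.058 and Trp53 at -0.026 after median-of-ratios rescaling, and when 1 library was left out Ldha at -0.001 to 0.026, Fasn at -0.048 to 0.004 and Zeb2 at -0.038 to 0.017, their ends on the far side of 0 coming without shMogat1 replicate 1, shMogat1 replicate 2 and shCTRL replicate 4. Genes under about 1 TPM, Mogat1 among them, rest on few reads; the cause of the other shifts was not tested.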
